A study of Mus musculus with 629 samples.

Results

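The macrophages described here were the 138 wild-type cells on plate 530s that the labels called macrophages, out of 629 cells in the whole series, 400 macrophages and 211 wild-type macrophages. They were chosen by 3 labels alone, cell type, Notch3 genotype and plate, and no measured value was used here beyond these labels. The labels do not say how cell type was assigned, and it may have been drawn from the same RNA. Of these, 133 cells had at least 50000 gene counts and were kept, and 5 were left out. Levels are given as CPM, a gene's counts scaled to the same total in every cell, in which the ERCC spike-in sequences and the ribosomal RNA gene Rn18s were left out of the total.

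Cells of adult C57BL/6 mice had been taken from brain, sorted singly by fluorescence into 384-well plates and sequenced with SMART-seq2, a method that copies full-length polyadenylated RNA and carries no molecular identifier, so that every read is a PCR copy. All mice carried the reporter SM22-Cre;Rosa26-stop-tdTomato, in which the promoter of SM22 (Tagln), a gene of smooth muscle and pericytes, drives Cre and Cre switches on a red fluorescent protein. Which fluorescence gate was sorted was not given in the sources used here, and Tagln itself had counts in 5 of the 133 cells, at no more than 29.5 CPM. A further 4 sets of macrophages serve only to show where a value recurred: wild-type (WT) cells of plates 059s (47 cells kept) and 529s (26), Notch3 knockout (KO) cells of plate 060s (84) and heterozygous (Het) cells of plate 056s (35). The 20 WT microglia of plate 530s serve as the other cell type of the same plate. No label named an animal, so each set counts as 1 sample. Cells are not replicates of a mouse, and no test was run.

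Macrophages at the borders of the brain lie along vessels, in the meninges and in the choroid plexus, and are a separate population from the microglia of the parenchyma. They take up proteins, lipids and dying cells through scavenger receptors such as the mannose receptor (Mrc1), stabilin-1 (Stab1) and the hemoglobin receptor Cd163. In mouse tissues they are commonly divided into cells rich in Lyve1 and Folr2 and cells rich in MHC class II, which presents peptides to helper T cells. Within 1 plate and 1 genotype, spread between cells is what remains, and the questions asked were which genes were on in some cells and off in others, and which genes rose and fell together from cell to cell.

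The 133 cells had a median of 219469 counts without Rn18s, from 53539 to 1203156, and a median of 3296 genes detected. Rn18s took a median of 51.8% of gene counts and the spike-ins a median of 1.19% of all counts. The total fell from low to high well columns (Spearman's rho -0.56 over the 24 columns), and genes detected rose with the total (rho 0.55). The microglia of the plate had a median of 265742 counts and 3867 genes. Xist was counted in 124 of 133 cells and none had a count of any of 4 Y-linked genes. Notch3 had no count in any cell, which allows a share of up to 2.26%. Intervals and limits on shares cover counting error only.

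The label went with its markers, which is no independent check if the label was drawn from the same RNA. All 133 cells had counts of Mrc1, Stab1 and F13a1, and 129 of 133 had counts of Lyve1 (97.0%, exact 95% interval 92.5 to 99.2%). Mrc1 ran from a 10th percentile of 3247 CPM through a median of 6284 CPM to a maximum of 15688 CPM, and Stab1 from 3799 through 8189 to 17536 CPM. F13a1, a subunit of the clotting factor XIII, had a median of 3528 CPM and a maximum of 9945 CPM. Lyve1, a receptor for hyaluronan, was the most uneven of the 4: its median was 1250 CPM, its highest cell had 15295 CPM, 111 cells were at 50 CPM or more, 16 lay between 5 and 50 CPM and 6 were under 5 CPM. Nearly all cells therefore shared Mrc1, Stab1 and F13a1, and the cells differed in Lyve1.

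The summed level of the 4 markers ran from 3158 through a median of 20726 to 41632 CPM. In the 20 microglia of the same plate it ran from 63.9 through 5555 to 21448 CPM, so the cell types overlapped. Mrc1 was at 50 CPM or more in 15 of the 20 microglia, and 19 of them had a count of all 4 markers. Lyve1 had a count in 95.0% of the microglia, as often as in the macrophages, but at a median of 14.8 CPM. Neither a count above 0 nor the level of these markers fully separated the cell types. Microglia genes differed more: of Tmem119, Sparc, Olfml3, Siglech and Sall1, 77 macrophages had none at 50 CPM or more, 42 had 1, 12 had 2 and 2 had 3, against at least 4 of 5 in 19 of the 20 microglia. Tmem119 had a median of 4.47 CPM in macrophages and 5305 CPM in microglia. Fcrls, a receptor often used for microglia, was shared, with medians of 4839 and 5074 CPM. The part of RNA from the other cell type in these values was not tested.

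**Figure D1:**
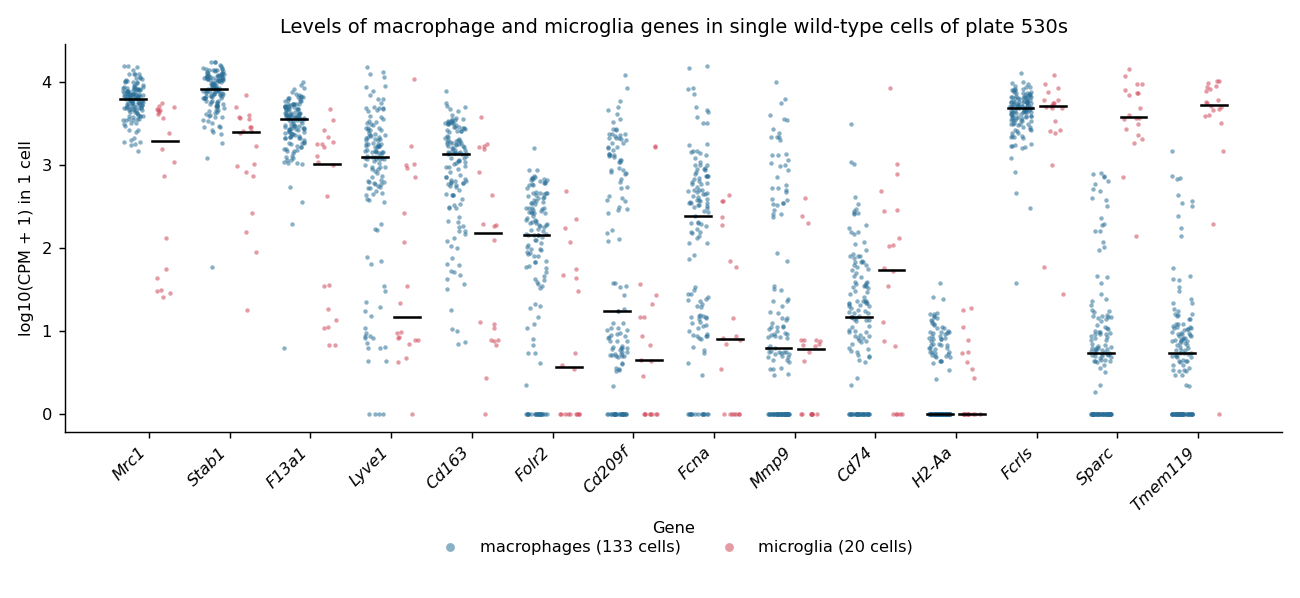
Levels of 14 genes in single cells, on the scale log10(CPM + 1), with 1 point per cell and a bar at the median, for the 133 macrophages and 20 microglia of plate 530s. Mrc1, Stab1 and F13a1 form a single band in nearly all macrophages, Lyve1, Cd209f, Fcna and Mmp9 spread over several orders of magnitude, and Tmem119 and Sparc are near 0 in most macrophages and above 1000 CPM in most microglia.

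Markers of most other cell types were low, with exceptions in several lists. None of the 12 mural cell markers was tested for on and off states, since none reached a mean of 20 CPM, and their summed level was at most 29.5 CPM. Cdh5, Lum, Pdgfrb and Ms4a1 had no count in any cell. The summed endothelial list had a median of 412.5 CPM and a maximum of 1335 CPM, of which Bsg, a membrane protein of many cell types, made up most (median 400.5 CPM). Igfbp4, placed in the fibroblast list, was high in the macrophages (median 2930 CPM) while the collagen gene Col1a1 had counts in 7 cells. Astrocyte markers summed to a median of 0 and a maximum of 1702 CPM. Of the dendritic cell list, summed at a median of 76.4 and a maximum of 1528 CPM, Fscn1 was at 50 CPM or more in 39 cells, Siglech in 28 and Zbtb46 in 20, while Flt3 had a count in 1 cell and Ccr7 in none. The oligodendrocyte list had a summed median of 383 CPM: Mbp, myelin basic protein, was at 50 CPM or more in 59 macrophages and in 12 of the 20 microglia, with a highest macrophage of 5654 CPM, while the oligodendrocyte regulators Olig1 and Olig2 had no count in any macrophage. The neutrophil genes S100a8 and S100a9 had counts in 98 cells each, at medians of 6.94 and 8.79 CPM, and in 13 and 12 of the 20 microglia. A single cell held 99.0% of all Hbb-bs, the adult beta-globin, and the next cell had 51.9 CPM of it. The single cell had 25686 CPM of Hbb-bs, 6306 CPM of Hba-a1 and 4635 CPM of Alas2. Of the label markers it had 3090 CPM of Mrc1, but only 57.8 CPM of Stab1 and 5.25 CPM each of F13a1 and Lyve1.

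The most abundant RNA was that of apolipoprotein E. Apoe had a 10th percentile of 46189, a median of 73710 and a 90th percentile of 107477 CPM, and made up 7.93% of the counts. By counts, which favour long transcripts, the next were Csf1r, the receptor for the growth factor that macrophages need to survive (15275 CPM), the protease Ctsb (12514), the selenium carrier Selenop (11001), the complement gene C1qb (9938), Stab1, the lysosomal protein gene Grn (8118) and C1qa (6992), followed by Mrc1, Actb, Lgmn, Lyz2, Trf, C1qc, Fcrls, Laptm5, Serinc3, Ctsa, Itm2b and Dab2. Across cells these levels varied by about the same relative amount. The coefficient of variation, the SD over the mean, was 0.32 for Apoe, Csf1r and C1qc and 0.53 for Dab2. Lysozyme stood out: Lyz2 had a coefficient of 0.90, with a median of 5710 CPM, a lowest cell at 42.1 and a highest at 40160 CPM.

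Genes of the perivascular list were nearly all present: 25 of 25 reached a mean of 20 CPM and 22 had a count in at least 50% of cells. Beside the markers already given, the endocytic adaptor Dab2 had a median of 3947 CPM (10th to 90th percentile 2024 to 7896), Gas6, a ligand of the uptake receptors Mertk and Axl, 3308 CPM (1795 to 5865), the carbonyl reductase Cbr2 2204 CPM (755 to 4120) and Cd163 1353 CPM (79.6 to 3348). A lower set was on in most cells: the endothelin receptor Ednrb (median 905 CPM), the chemokine Pf4 (618), the lectin Clec10a (503), Colec12 (480), Ms4a7 (469), Siglec1 (296), the transcription factor Maf (240), Igf1 (220), Egfl7 (158), the folate receptor Folr2 (143), Ms4a6c (128), the chemokine Ccl24 (113) and Wwp1 (108). The remaining members were near 0 in the median cell: Cd209f (16.4 CPM), Cd209g, Cd209b and Timd4 (0 CPM). Timd4, a receptor for phosphatidylserine, was at 50 CPM or more in 24 of 133 cells. The list thus ran from genes in every cell to genes in under 1 cell in 5.

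MHC class II RNA was close to absent. H2-Aa had counts in 57 cells with a maximum of 37.4 CPM, H2-Ab1 in 58 cells with a maximum of 28.4 CPM, and H2-Eb1 in 52 cells with a maximum of 136.9 CPM. Their sum had a median of 6.81 CPM, was 0 in 52 cells and reached 50 CPM in 3 cells. No cell was therefore rich in all 3 of these genes. H2-Aa had a count in 42.9% of macrophages (34.3 to 51.7%) and in 45.0% of microglia (23.1 to 68.5%), so the shares did not set the macrophages apart. Cd74, the invariant chain that escorts class II molecules, had a median of 13.9 CPM, was at 50 CPM or more in 32 cells and reached 3119 CPM in 1 cell. H2-DMb1, which helps to load peptides, was at 50 CPM or more in 33 cells and H2-DMa in 13. Ciita, the master activator of class II genes, had counts in 12 cells at no more than 18.7 CPM, H2-Oa in 1 and H2-Ob in 2. Class I genes were on throughout, with medians of 2548 CPM for H2-D1, 1324 CPM for B2m and 1186 CPM for H2-K1.

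Genes that were on in some cells and off in others were common. A gene was called on/off where at least 20% of cells were under 5 CPM, at least 20% were at 50 CPM or more and at most 15% lay between. At the median depth 1 count was worth 4.56 CPM. Among the 6179 genes with a mean of at least 20 CPM, 2442 were on/off, which is 39.5%, and 222 of these lay within 1 cell of a limit of the rule. The share depended on the mean level: 298 of 2805 genes between 20 and 50 CPM, 1066 of 1662 between 50 and 100, 767 of 929 between 100 and 200, 299 of 468 between 200 and 400, 12 of 191 between 400 and 800, 0 of 73 between 800 and 1600 and 0 of 51 above that. On/off was thus the usual state of a gene with a mean between 50 and 400 CPM.

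The spike-in sequences, which were added to every well in the same amount, were read by the same rule. Of the 25 with a mean of at least 20 CPM, 4 were on/off, all with means under 100 CPM. In the class from 20 to 50 CPM, 3 of 6 spike-ins were on/off against 298 of 2805 genes. From 50 to 100 CPM it was 1 of 2 spike-ins against 1066 of 1662 genes. Between 100 and 400 CPM, 0 of 10 spike-ins and 1066 of 1397 genes were on/off. Of these 10 spike-ins, 2 had at least 20% of cells off and 20% on and missed the call only by the limit on cells between, with 15.8% and 18.0% there. Cells held between 1179 and 48902 spike-in counts, with a median of 5316. Spike-ins are few and do not pass through cell lysis, so the part of RNA capture in the on/off genes was not tested beyond these counts.

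**Figure D2:**
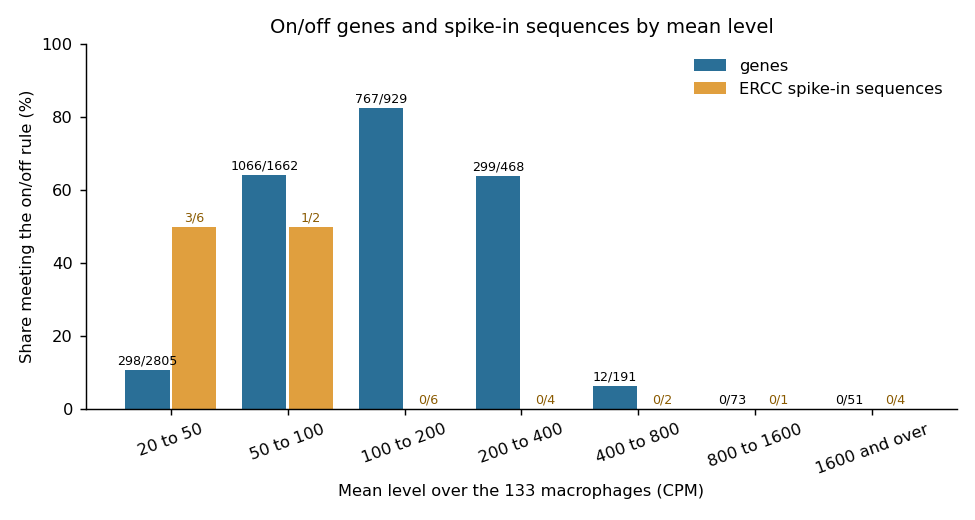
Share of genes and of ERCC spike-in sequences that met the on/off rule in the 133 macrophages, by mean level in CPM, with the number called and the number in each class above the bars. Genes between 50 and 400 CPM are mostly on/off, at 63.9 to 82.6%, whereas no spike-in above 100 CPM is. Between 20 and 50 CPM the share is higher for spike-ins (3 of 6) than for genes (298 of 2805).

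The 25 on/off genes with the highest levels in their on cells covered many functions. Their levels in the cells where they were on had medians of 526 to 741 CPM, and the genes were on in 21.1 to 74.4% of cells. Some encode lysosomal proteins, although none of the 20 genes of the lysosome list was on/off: Gaa, acid alpha-glucosidase, was on in 99 cells, off in 28 and between in 6, with a median of 741 CPM where on, the sialidase Neu1 was on in 92 and off in 29, and Idua, alpha-L-iduronidase, was on in 77 and off in 45. The lysosomal pump Atp13a2 was on in 86 cells and off in 32. Others are known from immune cells. The NADPH oxidase subunit Ncf1 was on in 96 cells and off in 27, the TNF receptor Tnfrsf1b in 92 and off in 29, the chemokine receptor Ccr1 in 92 and off in 27, the complement gene C4b in 74 and off in 41, the cyclooxygenase Ptgs1 in 69 and off in 46, and Stat6, which carries the interleukin-4 signal, in 80 and off in 34. Reads of C4b can be shared with its near-identical copy C4a.

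Others served trafficking, signalling and surface functions. Surf4 was on in 87 cells, Arap1 in 85, Copa, a coat protein of transport vesicles, in 83, Tbc1d14 in 80, Sh2b3, an adaptor that dampens cytokine signals, in 77, Uba7, the enzyme that activates ISG15, in 76, and Ehd1 in 74. The metalloprotease gene Adam33 was on in 82 cells and off in 34, and the calcium channel Trpv4 in 70 and off in 48. Ighm, the heavy chain of immunoglobulin M, was on in 81 cells and in 13 of the 20 microglia, while the B cell gene Ms4a1 had no count in any macrophage and Cd79a had a count in 1. The rarest were Atf7ip (61 cells), Gprc5c (57), Mroh1 (53), Rnf6 (34) and Nckipsd (28). Ncf1, Arap1, Sh2b3, Uba7, Mroh1, Atf7ip, Surf4, Idua, Tbc1d14, Copa, Ptgs1 and Stat6 overlap an exon of another gene, and without strand the reads cannot be told apart.

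**Figure D3:**
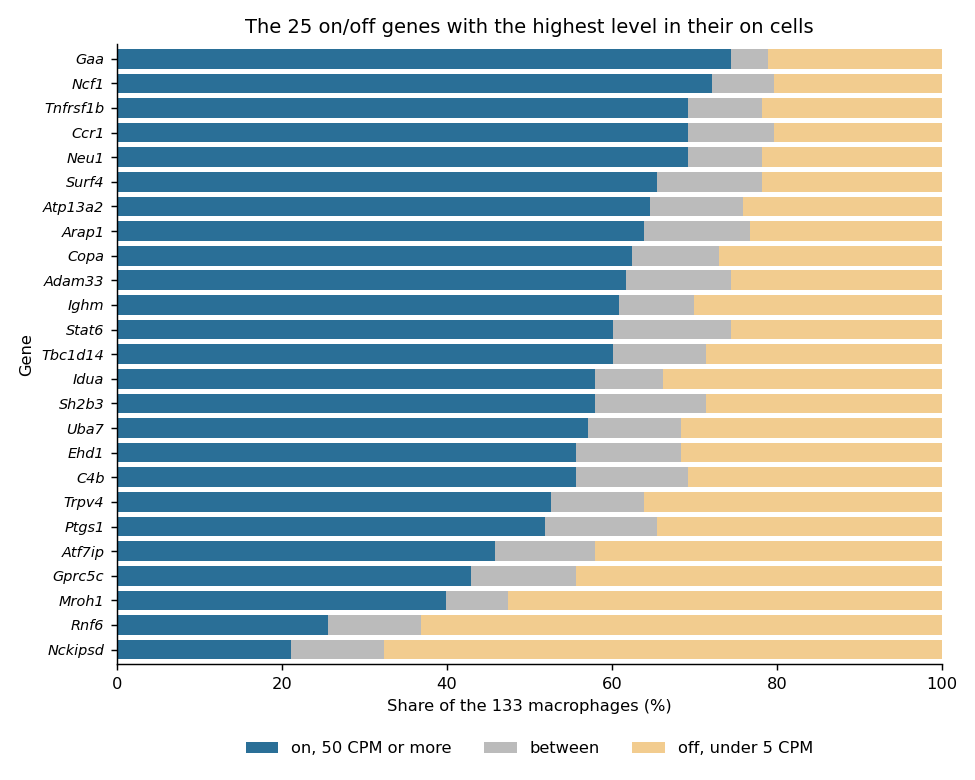
Share of the 133 macrophages in which each of the 25 on/off genes was on (50 CPM or more), between, or off (under 5 CPM), sorted by the share on. The share on falls from 74.4% for Gaa to 21.1% for Nckipsd, and the share between stays at 15% or less.

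These genes did not switch together. Over the 300 pairs of the 25 genes the median rho was 0.00, the highest 0.37 (Gaa and Stat6) and the lowest -0.28 (Trpv4 and Surf4), and 1 pair reached 0.3. A cell had between 5 and 20 of the 25 on, with a median of 15. The level of each gene did not follow depth closely either: its rho with the total ran from -0.21 to 0.16 and with genes detected from -0.30 to 0.18. In the other sets the rule held for 20 of the 25 in WT cells of 059s, where it held for 50.4% of the genes tested on both plates, for 13 in WT cells of 529s (39.7%), for 12 in KO cells of 060s (41.1%) and for 24 in Het cells of 056s (50.4%). Of all genes on/off on 530s and tested there, 79.3%, 61.3%, 70.1% and 77.2% were on/off in these sets, so 13 and 12 of 25 were smaller shares than those of all on/off genes. Of the 4338 genes tested in all 5 sets, 798 were on/off in every one. In the microglia the 25 genes were on in 15.0 to 90.0% of cells.

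Some genes had a few very high cells. They were chosen after their values were seen, as those with the highest coefficient of variation relative to genes of similar mean. The osteopontin gene Spp1 was under 5 CPM in 87 cells, at 50 CPM or more in 10 and at 19924 CPM in its highest cell, which held 45.4% of its sum. Vcam1, an adhesion molecule, had 9958 CPM in 1 cell and 1337 CPM in the next, and Axl, a receptor for Gas6, had 7420 CPM in 1 cell and 2609 CPM in the next. None of these 3 met the on/off rule, since under 20% of cells were at 50 CPM or more. Fcna, ficolin A, a lectin of the complement pathway, was at 1000 CPM or more in 21 cells with a median of 244 CPM and a maximum of 15439 CPM, the gelatinase Mmp9 in 18 cells with a median of 5.33 CPM, Sdc4 in 12 cells, the chemokine Ccl9 in 10 and Ccl24 in 5. Of these 5, Ccl9 met the on/off rule, on in 61 cells and off in 57. Fos, an immediate early gene, met it too: it had 0 CPM in the median cell, was on in 30 cells and off in 93, and reached 4251 CPM. Mmp9 was between 5 and 50 CPM in 30 cells, and 12 of the 20 microglia had a count of it at a median of 5.14 CPM, so low values of Mmp9 were found in both cell types.

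The lectin genes Cd209f and Cd209g were often high in the same cells. Both encode C-type lectins related to the human dendritic cell receptor DC-SIGN. Cd209f had a median of 16.4 CPM and a maximum of 12233 CPM, and was at 50 CPM or more in 59 cells, between in 30 and under 5 CPM in 44. Cd209g was at 50 CPM or more in 36 cells, with a maximum of 1704 CPM. Both were on in 35 cells, Cd209f alone in 24, Cd209g alone in 1 and neither in 73, and rho was 0.63. In the other sets, Cd209g was on in 9, 3, 33 and 2 cells (059s, 529s, 060s and 056s), and Cd209f was on in each of them. Among the microglia Cd209f was on in 2 cells and Cd209g in 1 of these. Cd209b, another member, was on in 14 cells, and its rho with Cd209f was 0.37.

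Cd209f and Cd209g are neighbours with no protein-coding gene between them and lie on opposite strands, with 28972 bases between their starts. The 250 bases before each start are printed because they are close copies, taken from RefSeq on GRCm38.p6 and written 5′ to 3′ in the direction of the gene. Cd209f is at chr8:4105765-4106014 on the minus strand and Cd209g at chr8:4134486-4134735 on the plus strand. Capitals mark TGAGTCA, the site that AP-1 factors bind, and TATAAA, the TATA box.
Cd209f: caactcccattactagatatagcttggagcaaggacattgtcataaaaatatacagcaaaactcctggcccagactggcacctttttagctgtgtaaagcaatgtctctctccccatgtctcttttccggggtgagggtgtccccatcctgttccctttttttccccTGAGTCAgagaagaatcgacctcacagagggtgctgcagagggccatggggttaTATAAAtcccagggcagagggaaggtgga
Cd209g: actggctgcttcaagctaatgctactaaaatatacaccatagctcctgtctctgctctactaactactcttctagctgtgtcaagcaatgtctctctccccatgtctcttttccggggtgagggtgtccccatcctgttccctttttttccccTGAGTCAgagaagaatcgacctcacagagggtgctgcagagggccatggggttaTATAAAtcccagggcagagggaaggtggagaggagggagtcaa
Aligned end to end, 210 of the 250 bases were identical (84.0%), and the longest identical run was 154 bases. Against the other Cd209 genes in the table, Cd209a to Cd209e, identity was 49.6 to 59.6%. TGAGTCA on either strand occurs in 1466 of 32851 promoters of this length in the table (4.46%) and TATAAA in 4063 (12.4%). The transcripts are also alike: of the 20-base words of Cd209f, 851 (41.6%) occur in Cd209g, so reads may have been counted for the wrong gene, and the joint pattern of these genes is uncertain to that extent. No 20-base word of Cd209b occurs in Cd209f or Cd209g.

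Correlation between genes was weak in general. Over the 1922 genes with a count in at least 50% of cells and a mean of 20 CPM, which form 1846081 pairs, the median rho was 0.01, and 0.1% of pairs lay under -0.27 and 0.1% above 0.31. Values were at 0.5 or more in 47 pairs (0.00255%) and under -0.3 in 585 (0.0317%). All values come from the same 133 cells and so share their plate and their depths, and they are given as descriptions. Of the 47 pairs, 17 included a predicted gene, 1 was a pair of overlapping genes, 10 shared a name stem, as mt-Co1 and mt-Cytb do, and 19 were others. In the other sets, which hold fewer cells, rho reached 0.5 in 0.0464% of the same pairs in 059s, 0.701% in 529s, 0.0139% in KO cells of 060s and 0.206% in Het cells of 056s.

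The label markers correlated with one another moderately. The 6 pairs had a median rho of 0.32, from 0.19 for Mrc1 with Lyve1 to 0.41 for Lyve1 with F13a1. Not all recurred: in 059s, 529s, 060s and 056s, Mrc1 with F13a1 had -0.07, -0.11, 0.36 and -0.11, F13a1 with Stab1 -0.03, -0.45, 0.21 and 0.13, Lyve1 with Stab1 0.16, -0.11, 0.26 and 0.08 and Mrc1 with Lyve1 0.41, 0.02, 0.20 and -0.04. Lyve1 with F13a1 and Mrc1 with Stab1 were above 0 in each. The genes closest to these markers are given in 2 groups, which were picked from the same rho values. Clustering of all genes, described below, joined neither group as a module. In the first, Folr2 had a rho of 0.46 with F13a1, 0.43 with Lyve1, 0.41 with Fcna and 0.39 with Cbr2, and Fcna had 0.34 with Lyve1. Lyve1 was also close to the leukotriene synthase Ltc4s (0.38), Ccr1 (0.37), the transferrin gene Trf (0.37), Fcgrt (0.35) and Ptgs1 (0.35). Lyve1 with Folr2 was positive in each other set, at 0.47, 0.61, 0.35 and 0.30 (059s, 529s, 060s and 056s). In the same order Lyve1 with Ltc4s had 0.34, 0.08, 0.05 and 0.34 and Lyve1 with Ccr1 0.33, -0.09, 0.26 and 0.31. Lyve1 with Trf, Fcgrt and Ptgs1 was above 0 in each, with lowest values of 0.04, 0.05 and 0.12.

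The second group held Mrc1 and its closest genes, Dab2 (rho 0.52), Igfbp4 (0.45), Csf1r (0.38), Pf4 (0.36), Gas6 (0.35) and Stab1 (0.35). Mrc1 with Dab2 had a rho of 0.48, 0.18, 0.24 and 0.47 in the other sets, and Mrc1 with Csf1r 0.29, 0.08, 0.41 and -0.0042. Mrc1 had a rho of -0.10 with Fcna, -0.05 with Folr2 and 0.05 with Cbr2, so that its level said little about theirs. With F13a1 and Lyve1, also of the first group, Mrc1 had 0.24 and 0.19. The groups were not separate: Lyve1 with Stab1 had 0.33 across them, and Pf4 with Csf1r had -0.06 within the second. Genes opposed to Mrc1 included Lyz2 (-0.43), Ccl9 (-0.40) and Ftl1 (-0.33). Lyz2 with Apoe had a rho of 0.50. Mrc1 with Lyz2 was -0.21, -0.35, -0.04 and -0.23 in the other sets, Mrc1 with Ccl9 0.04, -0.36, -0.08 and -0.27 and Mrc1 with Ftl1 -0.12, 0.47, -0.24 and -0.30. The scaling also mattered: Mrc1 with Lyz2 came to -0.25 with edgeR TMM factors and -0.10 with DESeq2 size factors, and Mrc1 with Ccl9 to -0.25 with the latter.

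**Figure D4:**
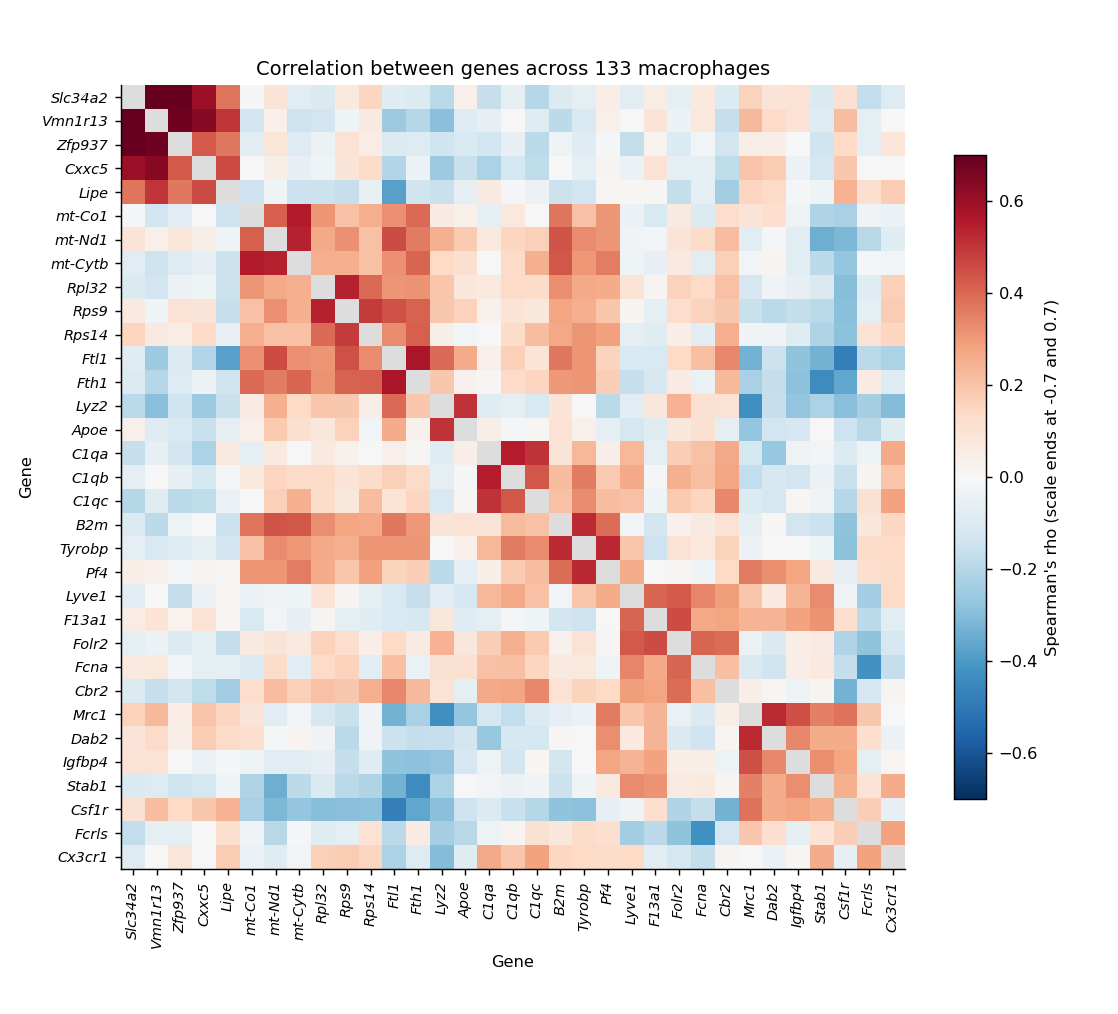
Spearman's rho between 33 genes across the 133 macrophages, with red for positive and blue for negative values and the diagonal in grey. Blocks of red hold Slc34a2 with Vmn1r13, the mitochondrial and ribosomal genes with ferritin, the C1q genes, Lyve1 with Folr2, and Mrc1 with Dab2, and blue squares mark Csf1r and Stab1 against ferritin, where the sign of Ftl1 with Csf1r and of Fth1 with Stab1 changed under DESeq2 size factors.

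The ferritin genes were among the highest pairs. Ftl1 and Fth1 encode the light and heavy chains of the protein that stores iron. Ftl1 ran from 334 through a median of 1258 to 4269 CPM and Fth1 from 253 through 1908 to 6134 CPM, and their rho was 0.57, with 0.56, 0.32, 0.56 and 0.42 in the other sets. Both were opposed to receptor genes here: Ftl1 to Csf1r (-0.48) and Fth1 to Stab1 (-0.44). In 059s, 529s, 060s and 056s, Ftl1 with Csf1r had -0.24, -0.15, -0.37 and -0.15. Fth1 with Stab1 had 0.06, 0.13, -0.41 and -0.18 there, so it was not opposed in the other WT sets. These relations went with a measure of the cell. Ftl1 had a rho of 0.50 with genes detected and Csf1r -0.44, and at equal total and genes detected the rho of Ftl1 with Csf1r was -0.33 and that of Ftl1 with Fth1 0.46. Under DESeq2 size factors Ftl1 with Csf1r came to 0.09 and Fth1 with Stab1 to 0.04, so the sign of these 2 pairs depended on the scaling. Csf1r was in 31 of the 585 pairs under -0.3, more than any other gene.

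**Figure D5:**
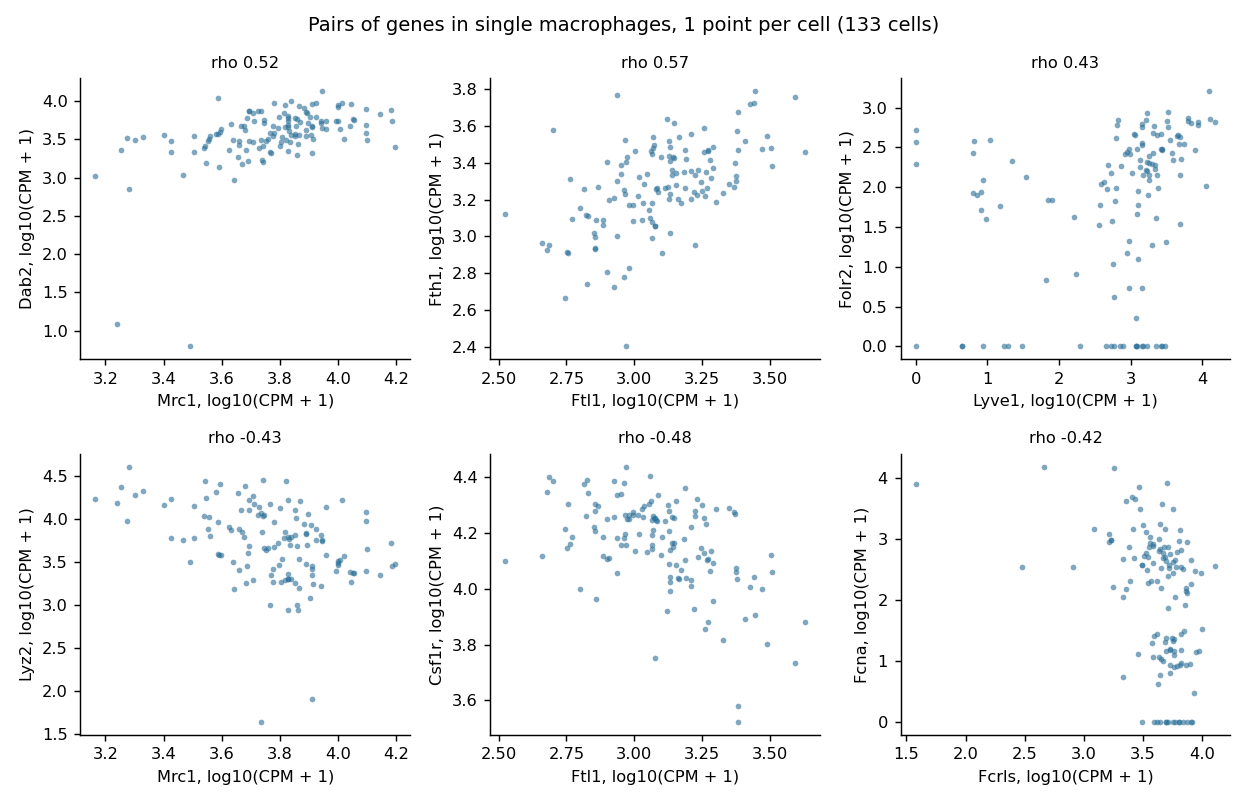
The 6 panels show pairs of genes in the 133 macrophages, 1 point per cell, both axes on the scale log10(CPM + 1), with Spearman's rho above each panel. Mrc1 with Dab2, Ftl1 with Fth1 and Lyve1 with Folr2 rise together, and Mrc1 with Lyz2, Ftl1 with Csf1r and Fcrls with Fcna are opposed, with wide scatter in every panel. The sign of Ftl1 with Csf1r changed under DESeq2 size factors.

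The 1922 genes gave 2 modules, groups of at least 4 genes joined at an average rho of 0.4. The second held Tyrobp, the signalling adaptor of Trem2, B2m, the light chain of class I molecules, the chemokine Pf4 and the nuclear RNA Malat1, with a median rho of 0.46. Tyrobp with Pf4 had 0.53, Tyrobp with B2m 0.52 and B2m with Malat1 0.51. At equal total and genes detected these pairs had 0.50, 0.45 and 0.43, and modules then held 9 genes in all instead of 13. The levels of the module's genes rose with the summed CPM of genes under 1000 bases, the gene itself left out: rho was 0.58 for Tyrobp, 0.55 for B2m, 0.53 for Malat1 and 0.47 for Pf4. Only the gene itself was left out, so any other member of the module under 1000 bases stayed in the sum. These rho values are therefore not independent of the module. The summed level of short genes ran from 6182 through 10129 to 53200 CPM over cells. The part of transcript length in this module was not tested. Itm2b belonged close by, with a rho of 0.52 with Ms4a7 and 0.49 with Malat1, and Malat1 had 0.50 with the mitochondrial ribosomal RNA mt-Rnr1. Several of these pairs were lower in other sets (059s, 529s, 060s and 056s): Malat1 with mt-Rnr1 had -0.07, 0.06, 0.48 and -0.13, B2m with Tyrobp 0.23, 0.19, 0.59 and 0.18, Pf4 with Tyrobp 0.48, 0.36, 0.67 and 0.20, B2m with Malat1 0.13, 0.51, 0.54 and 0.21, and Itm2b with Ms4a7 0.57, 0.14, 0.06 and 0.33.

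The first module held 9 genes: Gm48600, Vmn1r13, Slc34a2, Gm15266, Zfp937, 1110006O24Rik, Cxxc5, A430010J10Rik and Lipe. Slc34a2 encodes a phosphate transporter of epithelia, Vmn1r13 a receptor of the vomeronasal organ and Lipe hormone-sensitive lipase. Slc34a2 with Vmn1r13 had a rho of 0.85, the highest of all pairs, Zfp937 with Slc34a2 0.72, Zfp937 with Vmn1r13 0.68, Vmn1r13 with Cxxc5 0.64, Slc34a2 with Cxxc5 0.60, Slc34a2 with Ufsp2 0.52 and Vmn1r13 with Lipe 0.50. Slc34a2 ran from 0 through a median of 154 to 4365 CPM, and 1 of the 133 cells lacked it. The module's summed level had a median of 573 CPM and a maximum of 7898 CPM.

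The module was also seen outside these cells. Its median rho was 0.58 here, 0.52 in the microglia of the plate and 0.70, 0.57, 0.64 and 0.67 in the other sets, and its median summed level was 667 CPM in the microglia and 791, 2004, 3726 and 619 CPM in the other sets. On this plate the summed level had a rho of 0.49 with the Rn18s share of the cell, and Slc34a2 alone 0.64. In the microglia the summed level had 0.52, and in the other sets 0.32, 0.26, -0.32 and 0.23, so the sign was opposite in the KO cells of 060s, where the summed level was highest. Over the 36 pairs of these genes, 30 shared no 20-base word of their transcripts, and no pair shared more than 7, all of low complexity. The part of ribosomal RNA or of reads from other loci in this module was not tested.

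Neighbouring genes gave 1 further pair. Hgsnat, a lysosomal acetyltransferase that degrades heparan sulfate, and Pomk, a kinase of the dystroglycan sugar chain, are adjacent on the same strand. Hgsnat had a median of 511 CPM and Pomk of 8.14 CPM, and their rho was 0.56, with 0.52, 0.51, 0.51 and 0.51 in the other sets, the narrowest range of the 20 highest named pairs. Pomk was at 50 CPM or more in 52 macrophages. Their transcripts shared no 20-base word.

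Housekeeping families moved together. The 34 ribosomal protein genes had a median pairwise rho of 0.22, with 116 of 561 pairs at 0.3 or more, and it was 0.18 at equal total and genes detected. Rpl32 with Rps9 had 0.54. The 9 mitochondrial genes had a median of 0.35 (0.23 at equal total and genes detected). Of the other sets, the ribosomal median lay between 0.12 and 0.22 and the mitochondrial between 0.36 and 0.46. C1qa, C1qb and C1qc are the chains of the first complement component. C1qa with C1qb had a rho of 0.55, C1qa with C1qc 0.51 and C1qb with C1qc 0.44. C1qa with C1qb had 0.38, 0.33, 0.62 and 0.63 in the other sets. There, C1qa with C1qc had 0.47, 0.47, 0.53 and -0.06, and C1qb with C1qc 0.42, 0.31, 0.57 and 0.02. In the Het cells, the last of these sets, C1qc thus followed neither C1qa nor C1qb. H2-K1 with H2-D1 had 0.47, although 617 of their 20-base words are shared and reads may be counted for either.

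The lowest pairs joined genes of different function. Lyz2 with Ly6e, a GPI-anchored protein, had -0.48, Lipe with Iqgap1 -0.47, Lgals1 with Unc93b1, which brings Toll-like receptors to endosomes, -0.44, Fcna with Fcrls -0.42, Csf1r with Rps4x -0.42, and P2rx7, a receptor for extracellular ATP, with Tmsb4x -0.40. Under DESeq2 size factors Csf1r with Rps4x lost its sign (0.00021) and P2rx7 with Tmsb4x came to -0.17, and by Pearson's r the latter was -0.24. P2rx7 with Tmsb4x had 0.04, -0.11, -0.07 and 0.12 in the other sets. Fcna with Fcrls had -0.10, 0.04, -0.36 and -0.18 in the other sets. Fcrls had -0.33 with Siglec1, where the other sets had 0.12, 0.39, -0.33 and 0.01, and -0.28 with Folr2, where they had -0.03, -0.34, -0.35 and -0.25. Of the 10 lowest named pairs, 7, 7, 10 and 8 were below 0 in the other sets, and 2, 2, 4 and 0 were under -0.3, where 1.85%, 6.33%, 0.269% and 3.64% of all pairs were. Of the 20 highest, 8, 6, 12 and 6 were at 0.5 or more.

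Gene lists were read by the median rho over their pairs, against 0.01 over all pairs. The perivascular list of 22 genes had a median of 0.07 with 15 of 231 pairs at 0.3 or more, and scavenger receptors had 0.02 over 14 genes, Fcgr2b (median 1403 CPM), Fcgr3 (1136) and Cd36 (506) among them. Lysosomal genes had 0.08 over 20 genes, with Ctsb, Grn and Lgmn the highest. Complement genes had 0.02 over 8, iron and heme genes 0.01 over 11 (Hmox1, heme oxygenase, median 636 CPM, Slc40a1, the iron exporter, 425) and class I genes 0.05 over 9. Growth factor and matrix genes had -0.04 over 7, among them Tgfbi (1693 CPM). All of these medians were below the 0.32 of the label markers. The lists also differed in level: the median member had 4906 CPM among the label markers and at most 1795 CPM (lysosomal genes) in these lists. The part of level in the medians of rho was not tested.

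Genes of oxidative phosphorylation had a median rho of 0.09 over 17 genes (Atp5b 756 CPM, Atp5a1 575), glycolysis 0.05 over 6 (Aldoa 302, Gpi1 244), lipid handling 0.08 over 7 (Trem2 598, Abca1 596), and genes of disease-associated microglia 0.13 over 5. Interferon response genes had 0.13 over 4 of 20 members, and 0.0056 in the 75 cells of at least 200000 counts, Bst2 the highest at 282 CPM, while Ifit1 was on in 5 cells and Isg15 in 1. Transcription factors of myeloid cells had 0.00 over 11 (Spi1, the master regulator of the lineage, 457 CPM, Irf8 363), microglia genes 0.02 over 12 (Cx3cr1, the fractalkine receptor, 1868 CPM), heat shock genes 0.02 over 3 (Hsp90ab1 857) and chemokines 0.02 over 3. Several inflammatory genes were silent or rare: Il6, Cxcl1, Cxcl2 and Ptgs2 had no count in any macrophage, and Il1b had counts in 4 cells and Tnf in 6. Of the 15 genes of the inflammatory list, however, 4 reached a mean of 20 CPM and 2 were on/off. The summed level of that list had a median of 740 CPM and a maximum of 5218 CPM. Mki67, a proliferation marker, was at 50 CPM or more in 2 cells.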

How the data were processed

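The authors deposited 1 table of whole-number counts per gene symbol and cell, without normalisation. Per the submitters' processing notes reads were aligned with STAR, and neither build, annotation nor counting program is given in the sources used here. The table held 53546 gene symbols and 92 ERCC sequences, and all of its columns were matched to labels by name. Levels were CPM of the gene total without Rn18s. Spearman's rho was computed over genes with a count in at least 50% of cells and a mean of 20 CPM. Modules came from average linkage on 1 minus rho, and intervals are Clopper-Pearson. Partial rho held ranks of the total and of genes detected.

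Named were the 4 markers, the 20 genes of highest median, 25 on/off genes of highest on level, 20 highest and 10 lowest pairs without predicted, overlapping or same-stem genes, up to 5 genes per module, list members by mean level, and all measured perivascular and MHC class II genes. Further genes were chosen after their values were seen: the wide-spread genes, Cd209f and Cd209g as a pair, markers at 0, and the spike-ins. Some genes and pairs that these rules name are not reported here. The members and the lists were chosen with earlier results of these data known. The code for on/off calls and modules was also run on simulated data, which checks the code and not the calls in these cells. Overlaps and 20-base words came from GENCODE M21, in which 50067 symbols were found, and promoters from RefSeq, with 1 entry each for Cd209f and Cd209g and 0 for Lyve1. Python 3.11.15, pandas 2.3.3, numpy 2.4.6, scipy 1.17.1, matplotlib 3.10.9, and R 4.3.3 with edgeR 4.0.16 and DESeq2 1.42.0 for size factors were used. Alternatives changed the cells, the total, the scaling, the depth and each limit.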

Additional observations from a re-analysis of the deposited data

How the results depend on the processing

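The 2442 on/off genes numbered between 1628 and 2825 under 11 alternatives and 2546 without 3 cells left out after seeing the data (the highest in Hbb-bs and those with 3 microglia genes on). They numbered 1151 where off meant 0 counts and 1220 where on meant 100 CPM. The 47 pairs at rho 0.5 or more became 92 in the 75 cells of at least 200000 counts, 154 with edgeR TMM factors, 396 with DESeq2 size factors, 18 with cells thinned to 50000 counts and 30 at equal total and genes detected. The 585 pairs under -0.3 became, in the same order for the first 4, 10225, 262, 256 and 330, and 1704 with a count in 25% of cells and 389 with Pearson's r of log2(CPM + 1). The 13 genes in modules became 30, 39, 78 and 4 for those 4, 9 at equal total and genes detected, 23 with all 138 cells, 28 with Rn18s in the total, 26 with Pearson's r, and 43 and 7 with module limits of 0.3 and 0.5. Counts of pairs and modules therefore depend on scaling and depth, and the cause was not tested. Of 270 values of named pairs 237 stayed within the interval of the reported rho by Fisher's z, used as a tolerance, 30 moved and 3 changed sign, all with DESeq2 size factors: Ftl1 with Csf1r (0.0916), Stab1 with Fth1 (0.0408) and Csf1r with Rps4x (0.00021). Of the median rho of lists, 50 values stayed within 0.1 and 1 moved, that of the interferon genes (0.0056 in the 75 cells). All 175 shares of the 25 on/off genes stayed within their binomial intervals, over alternatives that kept on at 50 CPM. These genes were picked for high levels where on, and other limits for on or off were not applied to their shares. No paired analysis was possible because each set of cells is 1 sample and no result comes from a test.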
